A study of Bos taurus with 30 samples.

Results

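The genes described here encode proteins that bind newly made RNA or remove its introns: the heterogeneous nuclear ribonucleoproteins (HNRNP), the serine and arginine rich splicing factors (SRSF), and proteins of the small nuclear ribonucleoproteins that build the spliceosome. They were chosen by name. A probe set was taken when its single annotated symbol began with HNRNP, SRSF and a number, SF3A or SF3B, SNRP or U2AF, and each gene was represented by the probe set with the highest mean over the 30 arrays. This gave 44 genes, measured by 66 probe sets, of 9155 genes with a probe set of 1 symbol. The 16 HNRNP genes were HNRNPA0, HNRNPAB, HNRNPC, HNRNPD, HNRNPDL, HNRNPF, HNRNPH1, HNRNPH2, HNRNPH3, HNRNPK, HNRNPL, HNRNPLL, HNRNPM, HNRNPR, HNRNPU and HNRNPUL1, and the 9 SRSF genes were SRSF1, SRSF3, SRSF4, SRSF5, SRSF6, SRSF7, SRSF9, SRSF10 and SRSF11. The 13 genes of the U2 set, which work at the branch point and the end of the intron, were SF3A1, SF3A2, SF3A3, SF3B1, SF3B2, SF3B3, SF3B4, SF3B5, SF3B6, U2AF1, U2AF1L4, SNRPA1 and SNRPB2. The 6 other SNRP genes were SNRPA, SNRPB, SNRPC, SNRPD2, SNRPD3 and SNRPG.

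Skin was sampled at the places where ticks feed, in 13 animals of an F2 cross of Gyr (Bos indicus) with Holstein (Bos taurus). The arrays of resistant animals numbered 5 before infestation, 6 at 24 h and 5 at 48 h after it, from 6 animals, and those of susceptible animals numbered 3, 6 and 5 at the same times, from 7 animals. The times before infestation are called 0 h below. All animals carried the same cross and all later samples followed infestation, with no uninfested samples at 24 h or 48 h used here. The sources used here do not give the age of the animals or how resistance was scored, and an F2 animal can carry alleles of either breed.

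Splicing, the removal of introns, is carried out by the spliceosome. Its U1 particle marks the start of an intron, and the U2 particle, with the SF3A and SF3B complexes and the U2AF proteins, marks the branch point and the end. SR proteins mostly bind exons and favour their inclusion, many HNRNP proteins bind introns or splice sites and favour skipping, and several members of both families also steer the export, stability and translation of finished mRNA. In healing skin, for example, exons of fibronectin are joined differently, and some of these factors bind the mRNA of cytokines.

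Values are the authors' log2 signals, and a difference of 1 is a doubling of the signal. A probe set's signal depends on its own sequence, so levels are compared between arrays for 1 gene and never between genes. All 44 genes passed the filter on dim probe sets, and each was at or above the median of its array in all 30 arrays, where the array medians were between 7.17 and 7.40. HNRNPK, a binder of C-rich RNA, lay between 12.77 and 13.71, and HNRNPLL, known in human and mouse T cells for controlling CD45 exons, between 8.86 and 9.99. SNRPD2, part of the Sm ring that encircles spliceosomal RNA, lay between 12.44 and 13.50, and SRSF1, the SR protein first described as a splicing activator, between 9.10 and 10.09.

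Before the comparisons, some facts of the arrays matter. The number in each label names the animal, but the resistant 0 h arrays numbered 3, 4 and 5 were nearest to later arrays of animals 4, 5 and 6. This rested on probe sets chosen for differing between animals. The match was weakest for number 4 (r = 0.47), against 0.69 for number 3 and 0.78 for number 5. XIST, an RNA of the inactive X chromosome, was at 2.0 in the 0 h array numbered 3, against 11.6 and 11.5 in later arrays of that number. It was at 11.8 in the 0 h array numbered 5, against 4.83 and 4.74 later. In the 0 h array numbered 4 it was 5.6, low as in the 24 h array of animal 4 (4.3) and the later arrays of animal 5. XIST therefore did not tell animals 4 and 5 apart, and number 4 is the least certain of the 3. The calls of the fits with each animal as a fixed block are therefore given both with the numbers as labelled and with these 3 moved. The random block and the blocked refits without single arrays used the labelled numbers only. Changes within single animals are given by the labelled numbers. The resistant 48 h array of animal 1 stood farthest along the main axis of variation, at 65.6 against at most 38.3 in the other arrays. Of the markers measured, 5 of 6 of basal keratinocytes, 3 of 3 of differentiated epidermis and 8 of 8 of fibroblasts were at or above the array median in most arrays. So were 5 of 6 of endothelium and 1 of 4 of mast cells. The highest means of the first 3 lists were those of KRT5 (14.2), DSG1 (13.5) and COL3A1 (14.9). Means ran from 3.51 (VWF) to 10.96 (PECAM1) in endothelium and from 4.39 (HDC) to 10.59 (KIT) in mast cells.

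All 44 genes were tested in 11 comparisons with limma, each adjusted over 13809 probe sets. No member passed an adjusted p of 0.05 in any of them in the fit without animals. HNRNPAB and SF3B3 passed in 1 comparison, resistant skin at 48 h against 0 h, once each animal was set against itself as a fixed block. With the animal as a random block, by the labelled numbers (correlation 0.143), no member passed in any comparison.

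In resistant skin at 48 h against 0 h, HNRNPAB, HNRNPC, SF3B3 and SF3B4 had the lowest differences of the 44 genes, between -0.50 and -0.37. Of the 44 members, 28 were lower and 16 higher, with a median of -0.09, against -0.02 over all probe sets tested. By family, 12 of 16 HNRNP genes were lower (median -0.13), as were 7 of 9 SRSF genes (-0.07), while 6 of 13 genes of the U2 set (0.03) and 3 of 6 other SNRP genes (-0.06) were. At an unadjusted p under 0.05, 5 members were lower and 1 was higher, which is 11.4% and 2.27% of the members, against 6.08% lower and 4.95% higher over all probe sets. None passed after adjustment by limma, where 0 probe sets did and 1522 (11% of those tested) had an unadjusted p under 0.05.

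HNRNPAB, an A/B-type hnRNP that packages nuclear RNA, had the smallest p of the members. Its values in resistant skin at 48 h were 11.69, 11.998, 11.82, 11.62 and 12.14 in animals 1, 2, 3, 5 and 6, against 12.27, 12.36, 12.31, 12.50 and 12.35 in the 0 h arrays numbered 1 to 5. Every 48 h array was below every 0 h array, and the 24 h arrays, between 12.02 and 12.29, overlapped both. The difference was -0.50 ± 0.11 (SE), or 0.706 of the 0 h signal, with an adjusted p of 0.262, and its unadjusted p of 0.000134 ranked 5 among all probe sets. In a fit that treated each animal as a fixed block, HNRNPAB fell by 0.55 ± 0.11 (SE), with an adjusted p of 0.0331, and with the 3 numbers moved by 0.52 ± 0.11, with an adjusted p of 0.0415. All 4 animals with both times, by the labelled numbers, were lower at 48 h, by changes of -0.74 to -0.36. The 0 h arrays numbered 3 and 5 among these are doubted. With the 3 numbers moved, animal 5 had 11.62 at 48 h against 12.50 at 0 h, and animal 6 had 12.14 against 12.35. In susceptible skin its values at 48 h were 12.31, 12.05, 12.28, 11.65 and 12.33 in animals 7, 9, 10, 11 and 13, against 12.22, 12.14 and 12.16 at 0 h, so the 48 h arrays lay on both sides of the 0 h ones. Skin is a mixture of cells, so fewer cells of a type and less RNA per cell cannot be told apart here.

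SF3B3, a large scaffold protein of the SF3B complex, had 10.33, 10.48, 10.65, 10.49 and 11.04 in resistant skin at 48 h, against 10.90, 10.98, 11.08, 10.95 and 11.26 at 0 h. Animal 6 at 48 h reached the 0 h range, and the other 48 h arrays lay below all of it. The difference was -0.44 ± 0.12 (SE), with an adjusted p of 0.274. In the blocked fit SF3B3 fell by 0.51 ± 0.10 (SE), with an adjusted p of 0.0331, and with the 3 numbers moved by 0.44 ± 0.09, with an adjusted p of 0.0415. Each of the 4 animals with both times, by the labelled numbers, was lower at 48 h, by -0.77 to -0.43. The 0 h arrays numbered 3 and 5 among these are doubted. With the 3 numbers moved, animal 5 had 10.49 at 48 h against 10.95 at 0 h, and animal 6 had 11.04 against 11.26.

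By the labelled numbers, both blocked calls depended on single arrays and on the animal being a fixed block, since the random block called 0 members. Neither the random block nor the refits without single arrays were run with the 3 numbers moved. The fit with the labelled numbers called 84 probe sets (0.608% of those tested), of which 31 were higher and 53 lower, and 2 of 44 members (4.55%). With the 3 numbers moved it called 108 (0.782%) and the same 2 members. In 16 refits by the labelled numbers, each without 1 resistant array, HNRNPAB passed in 6 and SF3B3 in 8. Their adjusted p in limma lay between 0.0202 and 0.128. HNRNPAB missed the threshold without the 0 h arrays numbered 1, 2, 4 or 5, the 24 h arrays of animals 4 or 6, or the 48 h arrays of animals 1, 2, 5 or 6. SF3B3 missed it without the 0 h arrays numbered 1, 2 or 5, the 24 h array of animal 6, or the 48 h arrays of animals 1, 2, 5 or 6. Its difference stayed between -0.55 and -0.46 in these refits, and that of HNRNPAB between -0.61 and -0.48.

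HNRNPC, which binds runs of uridine and keeps hidden exons out of human mRNA, had 11.14, 11.19, 11.37, 10.95 and 11.38 in resistant skin at 48 h, against 11.38, 11.52, 11.57, 11.58 and 11.81 at 0 h. The highest 48 h array lay just below the lowest 0 h array, both at 11.38 when rounded. The difference was -0.37 ± 0.11 (SE), with an adjusted p of 0.280 without the animals, 0.0796 with them and 0.0603 with the 3 numbers moved. SF3B4, an RNA-binding SF3B subunit that contacts the intron ahead of the branch point, had 8.43, 8.45, 8.63, 8.57 and 8.85 at 48 h, against 8.81, 9.13, 8.91, 9.15 and 9.01 at 0 h. Animal 6 at 48 h again overlapped the 0 h range and the other arrays did not. Its difference was -0.42 ± 0.11 (SE), with an adjusted p of 0.274 without the animals, 0.0879 with them and 0.0866 with the 3 numbers moved.

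**Figure D1:**
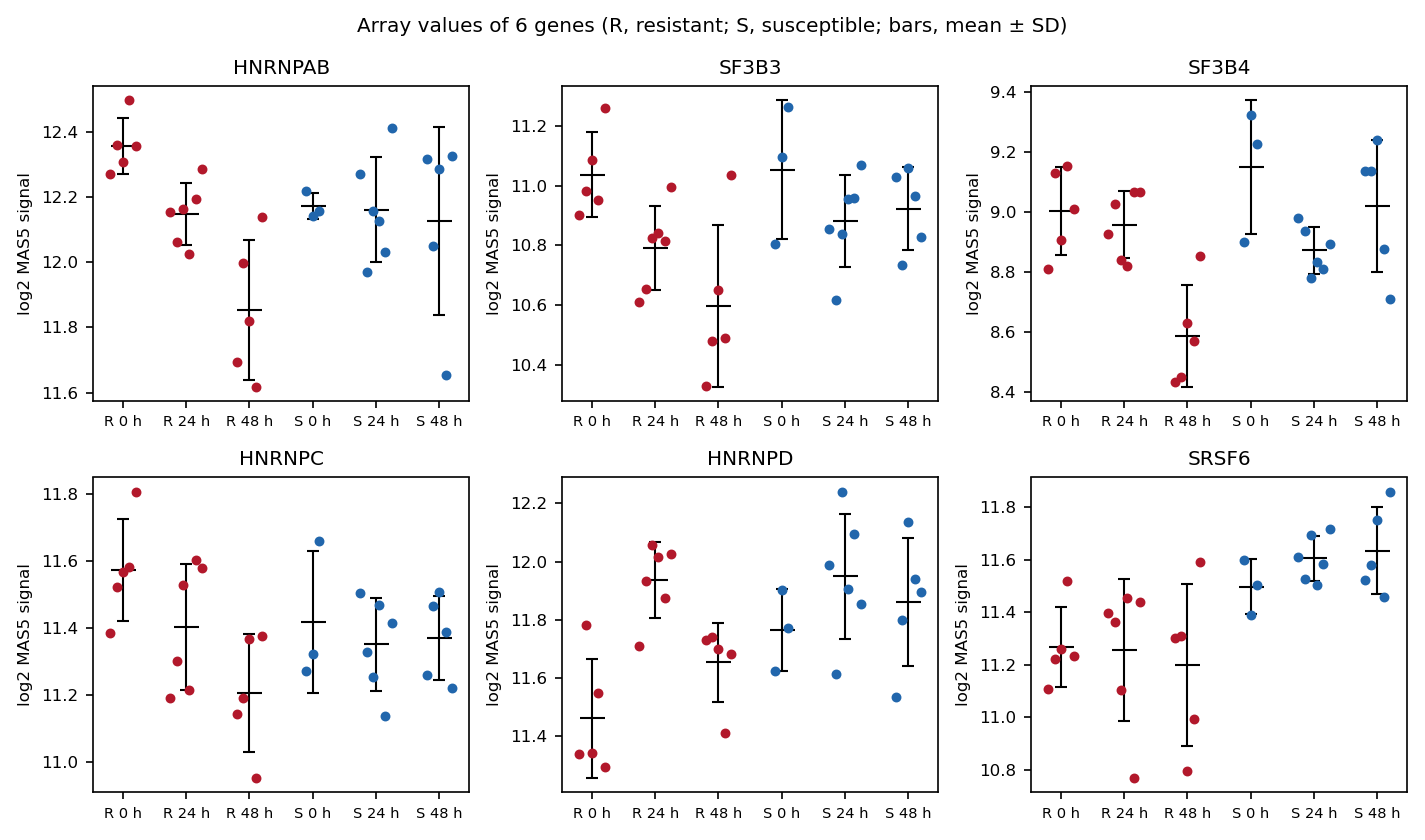
Log2 signal of 6 genes in every array, with resistant groups left and susceptible groups right of each panel and times in order; bars are the mean ± SD. HNRNPAB in resistant skin at 48 h lies between 11.62 and 12.14, below all 0 h arrays of resistant skin, which start at 12.27.

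HNRNPUL1 and HNRNPM also had every resistant 48 h array below every 0 h array, by narrow margins. With HNRNPAB and HNRNPC that made 4 of 44 genes, against 0.956% of all probe sets. The highest 48 h and lowest 0 h arrays were 12.4061 and 12.4066 for HNRNPM and 11.7928 and 11.8058 for HNRNPUL1. They were 11.3752 and 11.3849 for HNRNPC, and 12.14 and 12.27 for HNRNPAB. HNRNPUL1, a relative of HNRNPU with a part in the response to DNA breaks, had 11.79, 11.72, 11.70, 11.72 and 11.77 at 48 h, against 11.93, 12.08, 11.94, 11.88 and 11.81 at 0 h. The differences were -0.19 ± 0.09 (SE; adjusted p = 0.433) for HNRNPUL1 and -0.17 ± 0.09 (SE; adjusted p = 0.460) for HNRNPM, a regulator of alternative exons. In the other direction, U2AF1L4, a close relative of the U2AF1 protein that reads the end of the intron, had 9.14, 8.98, 8.74, 9.15 and 8.91 at 48 h, against 8.32, 8.72, 8.85, 8.79 and 8.44 at 0 h. The 8.74 of animal 3 lay inside the 0 h range, and the difference was 0.36 ± 0.16 (SE), with an adjusted p of 0.394 without the animals, 0.143 with them and 0.113 with the 3 numbers moved.

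Genes with several probe sets did not always give 1 answer in this comparison. For SF3B1, the SF3B subunit that clasps the branch point, the chosen probe set differed by 0.07 and the others by 0.37, 0.29 and 0.17. For HNRNPK the chosen probe set gave 0.21 and the other -0.05, and for SRSF1 the chosen one gave -0.29 and the others -0.20 and 0.09. HNRNPAB, HNRNPC, HNRNPD, SF3B3, SF3B4, SRSF5, SRSF6 and SRSF7 had 1 probe set of a single symbol each, so no second measurement was available for them here.

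At 48 h, resistant skin was compared with susceptible skin of the same time. All 9 SR protein genes were lower in resistant skin, by -0.44 to -0.10, with a median of -0.20. HNRNP genes were lower in 12 of 16 (median -0.17), the U2 set in 7 of 13 (-0.01, but 4 of 13 and 0.02 after centring), and 4 of the 6 other SNRP genes were higher (0.11). Over all 44 genes 30 were lower, and the median was -0.11, against -0.04 over all probe sets tested, of which 42.9% were higher, compared with 31.8% of the members. At an unadjusted p under 0.05, 9 members (20.5%) were lower and 0 higher, against 5.45% lower and 4.62% higher (10.1% in all) over all probe sets. After limma's adjustment 2 probe sets passed (0.0145%), and none was a member.

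Averaged over the 9 SRSF genes, the arrays of resistant skin at 48 h lay between 11.36 and 11.50, and those of susceptible skin between 11.51 and 11.81. The groups did not overlap in this mean, and their nearest arrays lay close together. At 0 h the same mean was between 11.38 and 11.59 in resistant and between 11.56 and 11.63 in susceptible skin, which overlapped. The group averages were 11.50 in resistant and 11.60 in susceptible skin at 0 h, and 11.42 and 11.65 at 48 h. In resistant skin 7 of 9 SRSF genes were already lower at 0 h (median -0.08), and 6 of 9 were at 24 h (-0.02). The median difference of the family at 48 h was -0.21 after quantile normalization and -0.18 after centring each array, and between -0.27 and -0.16 when any 1 array was left out. SRSF9 turned to 0.0058 without the resistant array of animal 1, which left 8 of 9 lower. Without the resistant array of animal 5, SRSF4 was at -0.0049, and without the susceptible array of animal 10, SRSF3 was at -0.044. SRSF10 was at -0.13 without the susceptible array of animal 13.

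**Figure D2:**
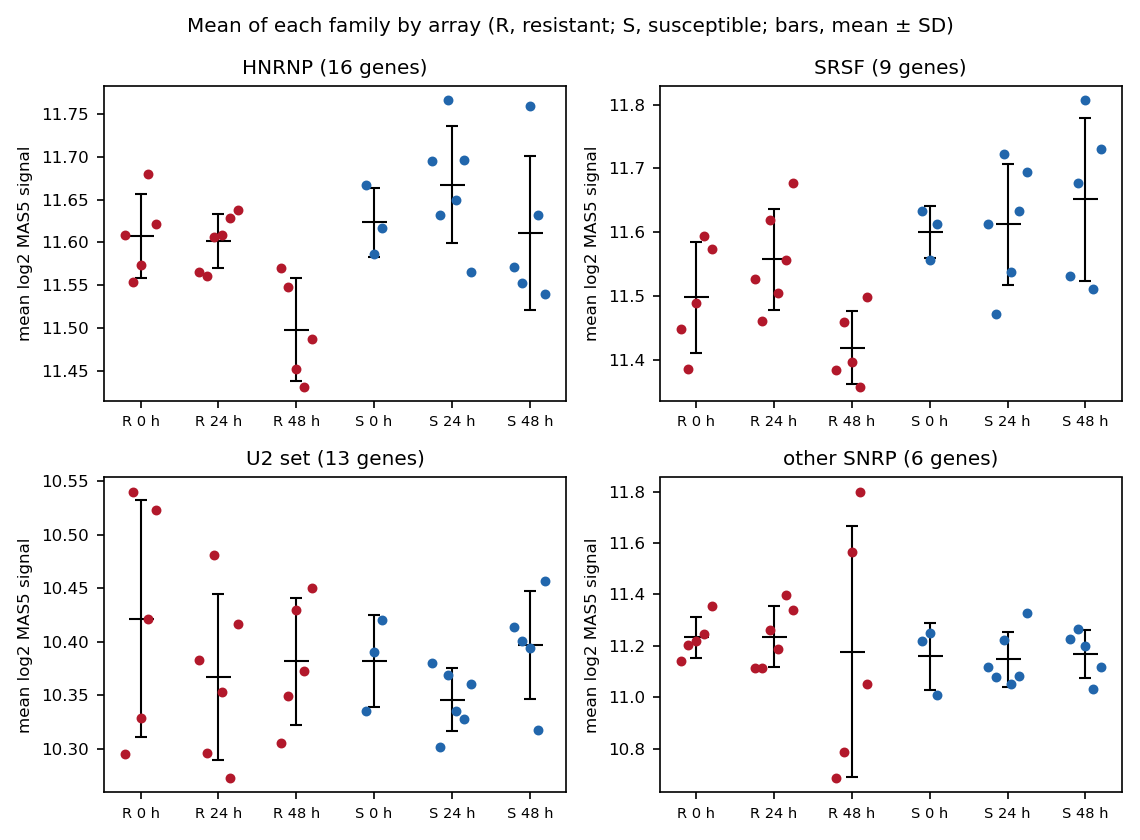
Mean log2 signal of the genes of each family in every array, with resistant groups left and susceptible groups right; each point is 1 array. The SRSF mean at 48 h is 11.36 to 11.50 in resistant and 11.51 to 11.81 in susceptible skin, and the other SNRP mean spreads from 10.69 to 11.80 in resistant skin at 48 h.

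SRSF6, an SR protein shown in mouse skin to regulate alternative exons, had the lowest difference in the family. Its values at 48 h were 11.30, 11.31, 10.79, 10.99 and 11.59 in resistant skin, against 11.52, 11.58, 11.75, 11.46 and 11.86 in susceptible skin. The resistant arrays of animals 1, 2, 3 and 5 were below all susceptible ones, and animal 6 was not. The difference was -0.44 ± 0.13 (SE), with an adjusted p of 0.244. SRSF5, an SR protein first found in rat as a growth-response gene, had 11.60, 11.40, 11.58, 11.76 and 11.72 in resistant skin, against 11.71, 11.93, 12.08, 12.10 and 12.06 in susceptible skin. The susceptible array of animal 7 overlapped the resistant range, and the difference was -0.36 ± 0.14 (SE), with an adjusted p of 0.387. SRSF7, an SR protein with a zinc knuckle that also takes part in mRNA export, averaged 11.79 ± 0.05 in resistant and 12.06 ± 0.23 in susceptible skin (SD over 5 arrays each), with an adjusted p of 0.462. The differences of the remaining SRSF genes were -0.23 for SRSF1, -0.20 for SRSF10, -0.19 for SRSF4, -0.18 for SRSF11, -0.12 for SRSF9 and -0.10 for SRSF3. The other probe sets of SRSF1 gave 0.04 and -0.31. The other probe set of SRSF4, with a mean of 6.19 below the array medians, gave -0.36, and those of SRSF11 were too dim to be tested.

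SF3B4 had the smallest p of the members in this comparison. Its resistant 48 h values, given above, were 8.43 to 8.85, against 9.14, 9.14, 9.24, 8.88 and 8.71 in susceptible skin, so the susceptible array of animal 13 and the resistant one of animal 6 overlapped. The difference was -0.43 ± 0.11 (SE), with an adjusted p of 0.192. SF3B3 was at -0.33 ± 0.12 (SE) with an adjusted p of 0.365, and HNRNPAB at -0.27 ± 0.11 (SE) with an adjusted p of 0.430. HNRNPUL1 was the 1 member whose groups did not overlap at 48 h, against 0.645% of all probe sets in that direction: its resistant arrays were between 11.70 and 11.79 and its susceptible arrays between 11.85 and 12.09. The difference was -0.24 ± 0.09 (SE; adjusted p = 0.347), and its other probe sets gave -0.18 and -0.20. HNRNPR, an hnRNP known in neurons for carrying mRNA, averaged 11.67 ± 0.05 in resistant and 11.88 ± 0.19 in susceptible skin (SD over 5 arrays each; adjusted p = 0.408), and HNRNPM averaged 12.28 ± 0.12 in resistant and 12.46 ± 0.19 in susceptible skin (SD; adjusted p = 0.489).

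The groups differed in XIST, which was high in 4 of 5 resistant and 2 of 5 susceptible arrays at 48 h. With a term for it, the members' median stayed at -0.11, and SF3B4 was at -0.42 (adjusted p = 0.252) and SRSF6 at -0.46 (adjusted p = 0.282).

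**Figure D3:**
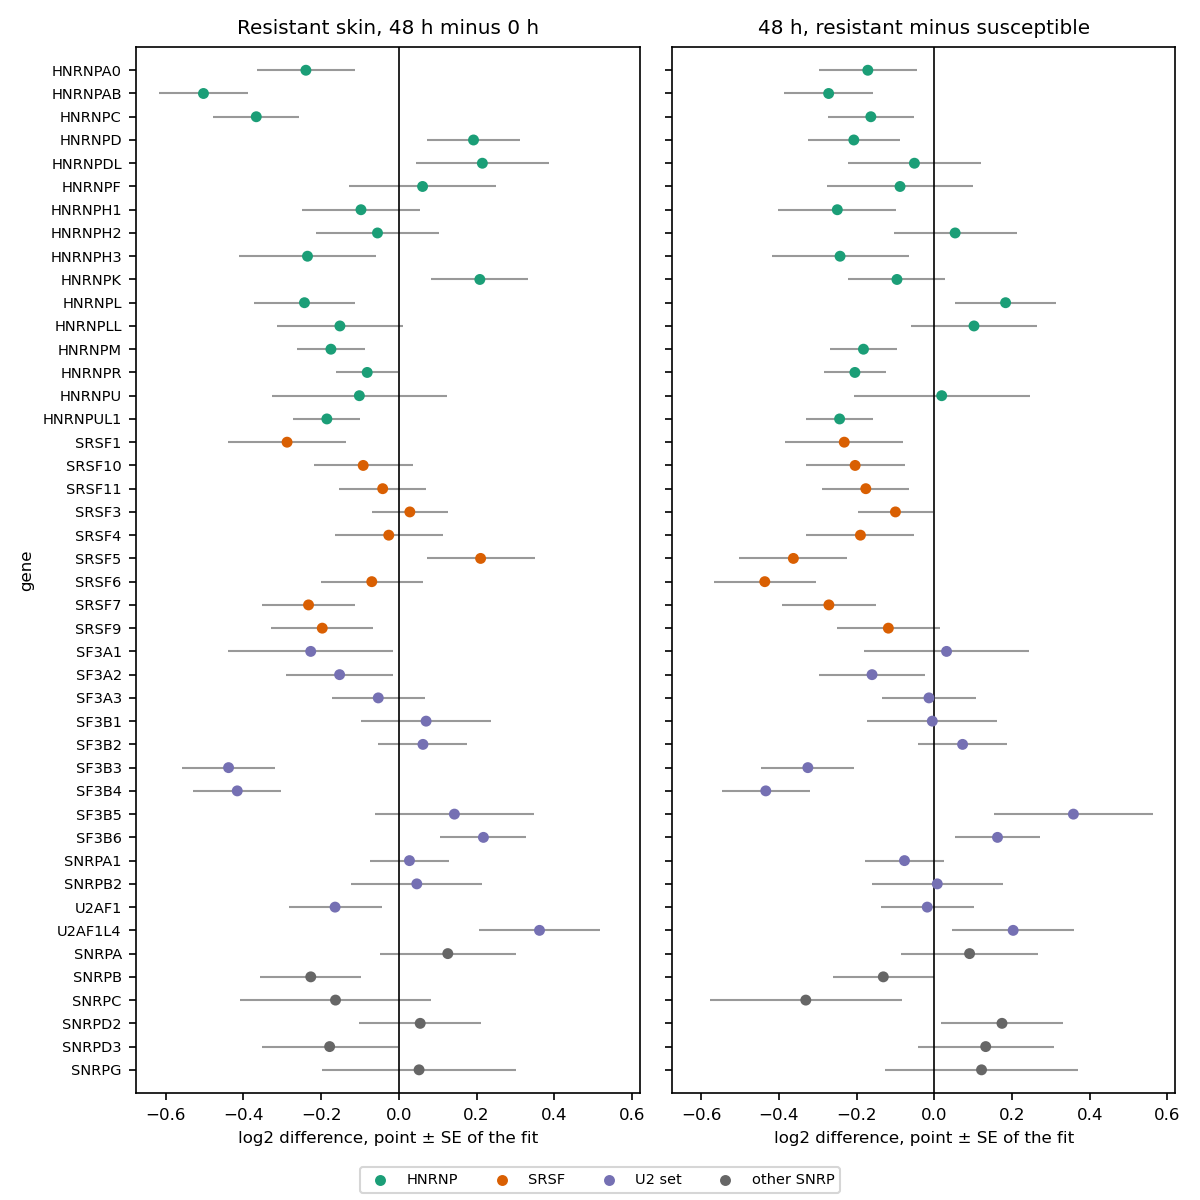
Log2 difference of each of the 44 genes, point ± SE of the limma fit, in resistant skin at 48 h against 0 h (left) and in resistant against susceptible skin at 48 h (right), coloured by family. All 9 SRSF points lie below 0 in the right panel, and HNRNPAB at -0.50 is the lowest point in the left panel.

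Markers of the cell mixture differed in the same comparisons, with 0 past the threshold, and their part in the splicing gene values was not tested. In resistant against susceptible skin at 48 h, all 8 macrophage markers measured were higher (median 1.32, with the complement gene C1QC at 1.67), as were all 8 fibroblast markers (0.63). All 6 basal keratinocyte markers were lower (-0.63), as were all 3 of the differentiated epidermis measured of 11 listed (-0.62, with the junction protein DSG1 at -0.71). All 4 mast cell markers measured (0.87) and all 4 neutrophil markers (0.30) were higher, and 9 of 11 cell cycle genes were lower (-0.12). Endothelial, smooth muscle and T cell markers went both ways. The mean of the macrophage markers was 9.61 to 10.44 in resistant skin at 48 h, against 7.23 to 9.45 in susceptible skin at 48 h and 8.28 to 9.44 in resistant skin at 0 h. Basal keratinocyte markers had means of 8.99 to 11.47 in resistant skin at 48 h and 10.97 to 11.19 at 0 h, and 5 of the 6 were lower at 48 h (median -0.50). In that comparison all 8 macrophage markers (0.92), all 6 endothelial (0.63), all 5 smooth muscle (0.57), all 4 mast cell (0.74) and all 8 fibroblast markers (0.25) were higher. Of the 3 markers of differentiated epidermis 2 were lower (median -0.85, that of DSG1), and 10 of 11 cell cycle genes were lower (-0.11).

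Within the 6 groups, over 30 arrays, the residuals of SF3B4 correlated with those of the differentiated epidermis mean at r = 0.60 and of the macrophage mean at r = -0.56. For HNRNPC these were 0.60 and -0.64, and for HNRNPAB 0.49 and -0.44. They were 0.35 and -0.41 for SF3B3, 0.22 and -0.12 for HNRNPD, and 0.10 and -0.0044 for SRSF6, and the medians over the members were 0.15 and -0.13. Other marker lists gave larger values for some of these genes. SF3B3 was at -0.58 with the mast cell and 0.49 with the basal keratinocyte mean, and SRSF6 at 0.48 with the T cell mean. For those 3 lists the medians over the members were -0.14, 0.07 and -0.14. HNRNPD was at -0.39 with the fibroblast mean, where the median over the members was -0.19. These are descriptions over arrays that share animals and normalization. The log2 signal of actin probe sets at the 3' end over the 5' end is a sign of RNA length. In resistant skin at 48 h it was 4.86, 4.40, 4.75, 1.16 and 4.05 in animals 1, 2, 3, 5 and 6 (median 4.40). It was 1.67 to 3.68 (median 2.97) in susceptible skin at 48 h and 1.92 to 3.43 (median 2.63) in resistant skin at 0 h. All resistant 48 h arrays but that of animal 5 lay above both ranges. The same ratio for GAPD had medians of 0.57, 0.56 and 0.37 in these groups, and that for EF1A -0.51, -0.57 and -0.35. The part of RNA length was not tested.

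Several other SNRP genes spread widely in resistant skin at 48 h. SNRPG, a protein of the Sm ring, had 11.02, 10.76, 12.05, 12.89 and 11.08 in resistant skin at 48 h in animals 1, 2, 3, 5 and 6, against 11.36 to 11.66 at 0 h and 11.23 to 11.59 in susceptible skin at 48 h. Animals 3 and 5 lay above and animals 1, 2 and 6 below all arrays of both other groups. SNRPC, a U1 protein that steadies pairing with the start of the intron, had 10.55, 10.26, 11.25, 11.75 and 10.64 in the same arrays. SNRPD2 repeated the high values, with 13.50 in animal 3 and 13.47 in animal 5, against 12.44 to 12.79 in the others. The mean of the 6 genes was 11.57 and 11.80 in animals 3 and 5, and 10.69, 10.79 and 11.05 in animals 1, 2 and 6. The family's median difference between resistant and susceptible skin at 48 h was 0.11 over all arrays, -0.09 without resistant animal 5 and 0.23 without resistant animal 1. SF3B5, a small SF3B subunit, had its 2 highest values in the same 2 arrays, 11.59 in animal 5 and 11.09 in animal 3, and a difference of 0.36 between resistant and susceptible skin at 48 h.

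In resistant skin at 24 h against 0 h, HNRNPD, also called AUF1, a binder of AU-rich elements that steers the decay of cytokine mRNAs, had the smallest p of the members. Its values were 11.71, 11.93, 12.06, 12.02, 11.87 and 12.03 at 24 h (lowest 11.71, median 11.97, highest 12.06), against 11.34, 11.78, 11.34, 11.55 and 11.29 at 0 h. The lowest 24 h array, that of animal 1, lay below the 0 h array of animal 2, and otherwise the groups were apart. The difference was 0.47 ± 0.11 (SE), with an adjusted p of 0.451 and an unadjusted p of 0.000262 that ranked 8 among all probe sets. HNRNPD was higher in all 5 animals with both times, by the labelled numbers, with changes of 0.15 to 0.71. The 0 h arrays numbered 3, 4 and 5 among these are doubted. With them moved, animals 4, 5 and 6 had 12.02, 11.87 and 12.03 at 24 h, against 11.34, 11.55 and 11.29 at 0 h. In the blocked fit the difference was 0.46 ± 0.09 (SE; adjusted p = 0.466), and with the 3 numbers moved 0.46 ± 0.10 (SE; adjusted p = 0.373).

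Susceptible skin had HNRNPD between 11.62 and 12.24 at 24 h and between 11.62 and 11.90 at 0 h, and 4 of the 5 resistant 0 h arrays lay below that 0 h range. The test of the difference between the 2 responses gave 0.29 ± 0.17 (SE), with an adjusted p of 1. At 48 h in resistant skin HNRNPD was at 11.41 to 11.74, a difference of -0.28 ± 0.11 (SE) from 24 h with an adjusted p of 0.462.

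At an unadjusted p under 0.05, 4 members were higher and 1 was lower at 24 h in resistant skin, which is 9.09% and 2.27%, against 2.74% and 1.98% over all probe sets. The other 3 higher ones were SRSF5 (0.35 ± 0.13 SE), SRSF3 (0.22 ± 0.09 SE), the smallest SR protein and an adaptor for mRNA export, and HNRNPDL (0.35 ± 0.16 SE), the nearest relative of HNRNPD, whose second probe set gave 0.38. The lower one was SF3B3 (-0.25 ± 0.11 SE), which was lower in all 5 animals by the labelled numbers, with changes of -0.44 to -0.11. The 0 h arrays numbered 3, 4 and 5 among these are doubted. The median of the 44 genes was -0.02, against -0.00 over all probe sets, with 27 lower. No probe set passed limma's adjustment, and 652 (4.72%) had an unadjusted p under 0.05. All 6 basal keratinocyte markers were higher in this comparison (median 0.28) and 5 of 8 macrophage markers were lower (-0.13), and their part was not tested. The actin ratio of 3' over 5' signal was 1.48 to 5.76 (median 3.73) at 24 h, against 1.92 to 3.43 (median 2.63) at 0 h. For GAPD the medians were 0.70 and 0.37, and for EF1A -0.43 and -0.35. The part of RNA length was not tested here either.

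In resistant skin at 48 h against 24 h, 31 of 44 members were lower (median -0.09, against -0.02 over all probe sets). SF3B4, HNRNPAB, HNRNPD, SRSF1 and SRSF3 were lower at an unadjusted p under 0.05 and 1 was higher, 11.4% and 2.27%, against 4.88% and 4.77%. SF3B4 was at -0.37 ± 0.11 (SE; adjusted p = 0.378), HNRNPAB at -0.29 ± 0.11 (SE; adjusted p = 0.443), SRSF1 at -0.31 ± 0.15 and SRSF3 at -0.19 ± 0.09 (SE), and HNRNPD is given above. U2AF1L4 was the higher one, at 0.44 ± 0.15 (SE; adjusted p = 0.390), with 24 h values between 8.08 and 9.08 that overlapped those at 48 h. No probe set passed in limma's fit, and 1332 (9.65%) had an unadjusted p under 0.05. With the animals as a block and the 3 numbers moved, 16 probe sets passed (0.116%), and 0 of them were members. In this comparison all 8 macrophage (median 1.01) and all 6 endothelial markers (0.61) were higher, 5 of 6 basal keratinocyte (-0.70) and all 3 differentiated epidermis markers (-0.51) were lower, as were all 11 cell cycle genes (-0.23), and their part was not tested.

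At 24 h between the phenotypes, 2 members were lower in resistant skin at an unadjusted p under 0.05 (4.55%, against 2.33% of all probe sets) and 0 were higher (against 2.07%). In both, the groups did not overlap, against 0.0869% of all probe sets in that direction. SRSF6 had 10.77 to 11.45 (median 11.38) in resistant skin and 11.50 to 11.72 (median 11.60) in susceptible skin, a difference of -0.35 ± 0.12 (SE; adjusted p = 0.978). SF3B1 had 11.71 to 12.22 (median 11.96) in resistant and 12.25 to 12.62 (median 12.28) in susceptible skin, a difference of -0.38 ± 0.15 (SE; adjusted p = 0.978), where its other probe sets gave -0.22, 0.16 and 0.11. HNRNPU, the scaffold attachment factor that ties RNA to chromatin, followed at -0.36 ± 0.21 (SE). The median of all members was -0.01, against -0.00, and in limma's fit 0 probe sets passed and 608 (4.4%) had an unadjusted p under 0.05.

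Before infestation, the members' median was -0.01 in resistant against susceptible skin, equal to that of all probe sets, with 22 members on each side. SRSF5 (-0.36 ± 0.16 SE) and HNRNPD (-0.30 ± 0.14 SE) were lower at an unadjusted p under 0.05, 4.55% of the members against 3.14% of all probe sets, and 0 were higher, against 1.38%. SRSF6 was next at -0.23 ± 0.15 (SE), and all 3 had an adjusted p of 1. SRSF5 had 11.05, 11.08, 11.37, 11.96 and 11.54 in resistant skin, against 11.80, 11.73 and 11.75 in susceptible skin. The resistant array numbered 4 was above all susceptible ones and the other 4 were below them. HNRNPAB was the 1 member whose groups did not overlap, higher in resistant skin (12.27 to 12.50, against 12.14 to 12.22), where 1.46% of all probe sets did so. In limma's fit 0 probe sets passed, and 623 (4.51%) had an unadjusted p under 0.05.

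**Figure D4:**
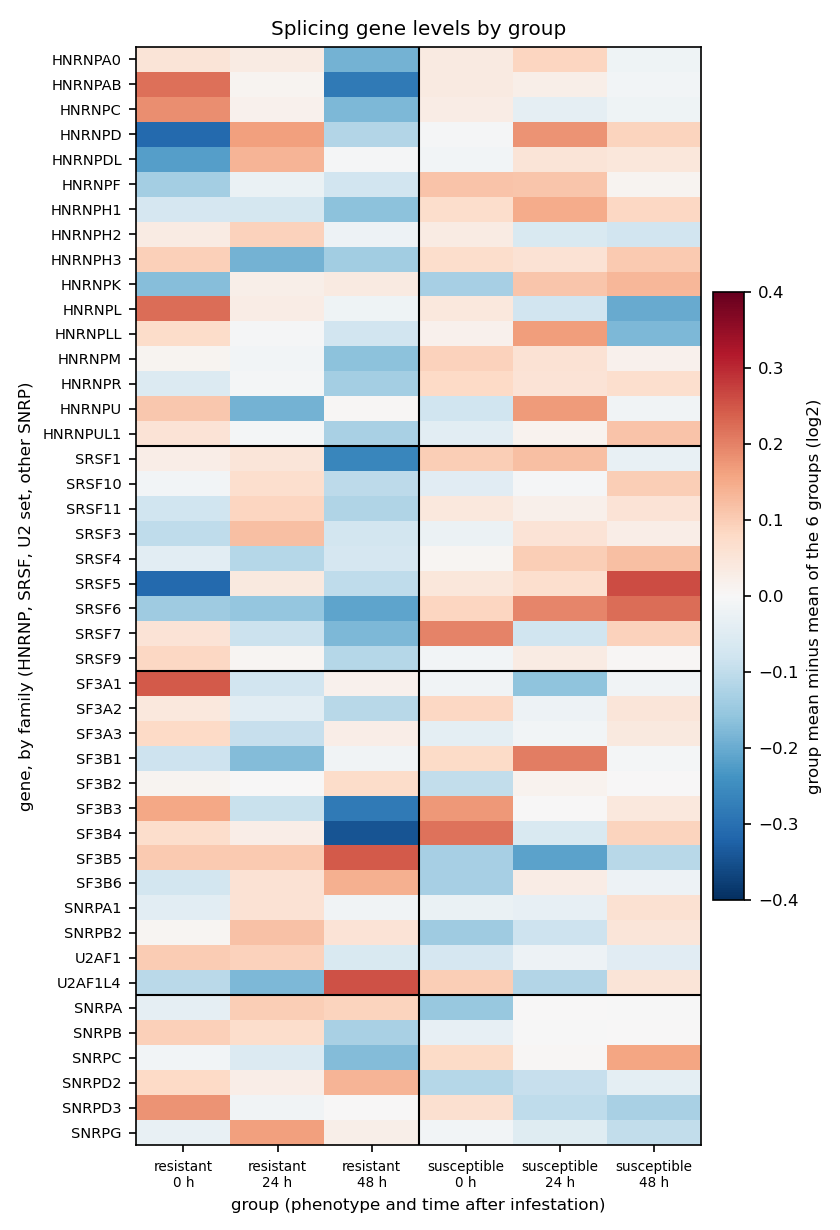
Heat map of the 44 genes by family and the 6 groups, resistant columns left; colour is the group mean minus the mean of the 6 groups (log2, -0.4 to 0.4). SRSF6 is below its mean in all 3 resistant groups, and HNRNPAB averages 12.36, 12.15 and 11.85 in resistant skin at 0, 24 and 48 h.

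SRSF6 had lower means in resistant skin at each time, with 11.27 ± 0.15, 11.25 ± 0.27 and 11.20 ± 0.31 at 0, 24 and 48 h in resistant skin and 11.50 ± 0.10, 11.61 ± 0.09 and 11.63 ± 0.17 in susceptible skin (SD over the 5, 6, 5, 3, 6 and 5 arrays). HNRNPAB followed another course: it averaged 12.36 ± 0.09, 12.15 ± 0.09 and 11.85 ± 0.21 in resistant skin and 12.17 ± 0.04, 12.16 ± 0.16 and 12.13 ± 0.29 in susceptible skin (SD). The phenotypes were sampled from different animals, and several animals gave arrays at more than 1 time.

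In susceptible skin at most 2 members had an unadjusted p under 0.05 in any comparison. At 24 h against 0 h, SF3B4 (-0.28 ± 0.13 SE) and SRSF7 (-0.28 ± 0.13 SE) were lower at an unadjusted p under 0.05, 4.55% of the members against 1.33% of all probe sets, and 0 were higher, against 0.97%. SRSF7 had 11.62 to 12.06 (median 11.94) at 24 h, against 12.14, 12.06 and 12.30 at 0 h, where the highest 24 h array and the lowest 0 h array were both at 12.06 when rounded and did not cross. HNRNPK did not overlap either, at 13.11 to 13.46 (median 13.21) at 24 h against 12.95 to 13.03 at 0 h, a difference of 0.24 ± 0.14 (SE), where its other probe set gave -0.06. Groups without overlap made up 0.739% (lower) and 0.76% (higher) of all probe sets.

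At 48 h against 0 h in susceptible skin no member had an unadjusted p under 0.05, against 0.949% of all probe sets (0.572% higher and 0.377% lower). HNRNPK (0.27 ± 0.14 SE), HNRNPL (-0.24 ± 0.15 SE), a binder of CA repeats, and HNRNPUL1 (0.16 ± 0.10 SE) had the smallest p. At 48 h against 24 h HNRNPLL was lower at an unadjusted p under 0.05, 1 of 44 members (2.27%, against 0.63% of all probe sets), and 0 were higher, against 1.25%. It had 9.15, 9.04, 9.46, 9.65 and 9.19 at 48 h, against 9.40 to 9.92 (median 9.64) at 24 h, a difference of -0.35 ± 0.16 (SE), and its other probe sets gave -0.26 and -0.19. All adjusted p in susceptible skin were 1, and limma passed 0 probe sets in these 3 comparisons, with 318 (2.3%), 131 and 259 (1.88%) at an unadjusted p under 0.05.

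The change from 0 h to 48 h was then compared between the phenotypes. It was lower in resistant than in susceptible skin for 32 of 44 members, with a median of -0.10, against -0.02 over all probe sets, and for all 9 SRSF genes (median -0.14). HNRNPAB (-0.46 ± 0.17 SE) and HNRNPUL1 (-0.34 ± 0.13 SE) were lower at an unadjusted p under 0.05, 4.55% of the members against 1.18% of all probe sets, and 0 were higher, against 1.75%. HNRNPC followed at -0.32 ± 0.17 (SE), and all had an adjusted p of 1. The change to 24 h gave 0 members at an unadjusted p under 0.05, against 1.85% of all probe sets (1.35% higher and 0.492% lower), with HNRNPD (0.29), HNRNPU (-0.55 ± 0.33 SE) and SRSF5 (0.33 ± 0.20 SE) nearest to it. limma passed 0 probe sets in either, with 405 (2.93%) for 48 h and 255 for 24 h at an unadjusted p under 0.05. In the 48 h comparison all 8 macrophage (median 1.34), all 8 fibroblast (0.69) and all 6 endothelial markers (0.44) had higher changes in resistant skin and 9 of 11 cell cycle genes lower ones (-0.18), and their part was not tested. These comparisons share their 0 h arrays with the ones above.

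Other splicing genes were taken from a pair of lists. In resistant skin at 48 h against 0 h, the 64 core factors measured of 81 listed had a median of -0.08 with 42 lower, and 7 of the 62 tested were lower and 0 higher at an unadjusted p under 0.05, where 6.08% of all probe sets were lower and 4.95% higher. SART1, a protein of the tri-snRNP, had the smallest p at -0.38 ± 0.14 (SE). The 46 splicing regulators measured of 61 had a median of -0.05 with 28 lower, and 5 of 43 tested were lower and 2 higher. ELAVL1, also called HuR, which binds and steadies AU-rich mRNAs, was at -0.35 ± 0.10 (SE; adjusted p = 0.280). No gene of either list passed in any of the 11 comparisons, nor in the blocked fits.

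At 48 h between the phenotypes, the core list had a median of -0.04 with 35 of 64 lower, 3 of them lower and 3 higher at an unadjusted p under 0.05, where 5.45% of all probe sets were lower and 4.62% higher. The branch-point protein SF1 was at -0.35 ± 0.14 (SE). The regulators had a median of -0.09 with 31 of 46 lower, 3 lower and 0 higher at that p, with the U1-associated protein LUC7L at -0.38 ± 0.15 (SE). In resistant skin at 24 h against 0 h, the cold-inducible RNA-binding protein RBM3 was the regulator with the smallest p, at 0.58 ± 0.16 (SE; adjusted p = 0.553), and SART3, which recycles U4 and U6 particles, the core factor, at -0.43 ± 0.15 (SE).

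Over 946 pairs of members, the median correlation of residuals from the 6 group means was 0.03 over 30 arrays, against 0.01 over all pairs of genes tested, and 5.39% of member pairs were over 0.5, against 4.42%. The median was 0.35 among the 6 other SNRP genes and 0.16 among SRSF genes, and -0.03 among HNRNP genes. The other SNRP mean had an SD of 0.49 in resistant skin at 48 h, against 0.08 to 0.13 in the other groups. Correlations without those arrays were not computed. The genes most like HNRNPAB among the members were HNRNPU (0.55), SRSF9 (0.50) and SNRPB (0.46). For HNRNPD they were HNRNPDL (0.53), SNRPB2 (0.50) and SRSF10 (0.46). These correlations are descriptions over arrays of shared animals.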

How the data were processed

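Per the labels' protocols, 50 ng of skin biopsy RNA was amplified and labelled by the 3' IVT Express method. The authors' deposited values are log2 signals of 24128 probe sets on 30 arrays, made with MAS5 per the submitters' processing notes, whose settings and version are not given in the sources used here. On the linear scale every array had a 2% trimmed mean of 500, so no further normalization was applied. Control probe sets (112) were left out, and 13809 probe sets that reached the array median in 3 or more arrays were tested. Gene names came from GEO's platform annotation: 13292 probe sets had 1 symbol, 86 several and 10638 none, and only the first kind was named.

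limma 3.58.1 in R 4.3.3 fitted 6 group means over all 30 arrays, with a trend in eBayes and Benjamini-Hochberg adjustment over all 13809, at a two-sided adjusted p of 0.05. Nothing in the labels says whether samples of an animal were processed together. The labels name animals, so pairing follows from them, with the 3 doubted 0 h numbers as an exception. Residuals of 24 same-number pairs correlated at -0.24 to 0.63 (median 0.25, 16 over 0.1). Those of 124 other pairs correlated at -0.44 to 0.69 (median -0.03, 27 over 0.1). The resistant 0 h array numbered 5 gave the 0.69, with the 24 h array of animal 6. The 0 h array numbered 3 gave 0.61 with the 24 h array of animal 4, and the -0.24 with the 48 h array of animal 3. The 0 h array numbered 4 gave 0.13 and 0.11 with the 24 h and 48 h arrays of animal 5. It gave 0.07 with the 24 h array of animal 4, and its highest value, 0.21, with the 48 h array of animal 2. Blocked values stand beside a result where they change its call. The script was tested on simulated data. The genes, the lists and the tests were chosen with earlier results of these data known. Named were members past the threshold or else the 3 with the smallest p in each comparison, those of highest and lowest level and largest SD in each family, the 3 most alike to HNRNPAB and HNRNPD, and the 1 gene with the smallest p in other lists; further members were added after their values were seen. Alternatives were quantile normalization, median centring, filters, the animal as a fixed or random block, the groups compared alone and each array left out; leaving out 3 doubted arrays, the XIST term and the blocked fit without single arrays were added after seeing the data. The number of arrays limits the precision. No sequences were used.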

Additional observations from a re-analysis of the deposited data

Results flagged for a closer look

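Of 145 sets of 1 named gene in 1 group of 5 or 6 arrays, 6 held an array that stood apart from the others by Dixon's criterion, where chance gives about 1 in 20. HNRNPD in resistant skin at 48 h was 11.41 in animal 5, against 11.68 to 11.74 in the others. HNRNPK in the same array was 13.71, against 12.97 to 13.09. SNRPA, the U1 protein that binds a stem loop of U1 RNA, was 8.44 in resistant animal 1 at 0 h, against 9.003 to 9.218, and 8.43 in susceptible animal 11 at 24 h, against 9.02 to 9.20. SRSF7 was 11.65 in resistant animal 2 at 0 h, against 12.05 to 12.22. SRSF9 was 12.09 in susceptible animal 11 at 48 h, against 12.52 to 12.60. Susceptible skin at 0 h, with 3 arrays, was not examined this way.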

How the results depend on the processing

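The main results were the members' medians and the counts of members passing. Of their alternative values, 446 stayed the same and 13 moved. A median counted as the same when it moved by less than 0.0505, whatever its sign, and some near 0 changed sign. That of 48 h against 24 h in susceptible skin went from 0.0086 to -0.0064 after centring. Of the other results, 113 moved, all counts of probe sets passing or of members at an unadjusted p under 0.05. The value of 1 gene reversed, and 18 passed the threshold, all of HNRNPAB or SF3B3 with the fixed block. In resistant skin at 48 h against 0 h, 2 members passed with the animal as a fixed replicate block, against 0 without it. With the 3 numbers moved, 2 passed as well. By the labelled numbers, leaving out single arrays in the blocked fit gave 0 to 3, or 1 to 3 where any passed. It gave 3 without the resistant 0 h array numbered 3, where HNRNPC joined. The replicate block changed no other member's call, and the random block, by the labelled numbers (correlation 0.143), called none. Without the resistant 0 h arrays numbered 3, 4 and 5, the members' median in that comparison was -0.028. Median centring turned the median at 0 h between the phenotypes to 0.052. Leaving out single arrays gave medians of -0.13 to -0.057 at 48 h between the phenotypes, the value nearest 0 without resistant animal 1, where SRSF9 reversed to 0.0058 (adjusted p = 0.995; -0.21 to 0.0058 over single arrays). Counts of members lower at an unadjusted p under 0.05 moved to 10 with the random block for resistant skin at 48 h against 0 h. At 48 h between the phenotypes they were 5 after centring, 5 without susceptible animal 10, and up to 10 without other single arrays. They were 5 at 24 h between the phenotypes with the groups compared alone, and 3 after centring for 48 h against 24 h in resistant skin. Centring left 0 at 0 h between the phenotypes and at 24 h in susceptible skin. Probe sets passing at 48 h between the phenotypes were 10 after centring, 0 with the groups alone, 1 with the XIST term and 0 to 14 without single arrays. Each member was at or above the array median in all arrays; with 3 to 6 arrays a group, small differences could be missed.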
